A study of Mus musculus with 11 samples.

Results

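The genes described here encode subunits of respiratory complexes I, II and III of the mitochondrial inner membrane, together with cytochrome c. They are the 32 nuclear genes of a given list, out of 18193 genes measured. Of these, 21 are listed under complex I (Ndufa4 among them), 4 under complex II, 6 under complex III and 1 for cytochrome c. The list bears the name of complexes I to III and V but holds 0 genes of complex V, the ATP synthase, so ATP synthase genes are given separately as related genes. Each gene was represented by the probe set that carries only its symbol and has the highest mean over all 11 arrays.

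RNA was measured on 11 Affymetrix arrays of GFP-positive cells sorted from muscle of Pax3GFP/+ mice on a C57BL/6J background, where the Pax3 locus drives GFP. Every animal, at every age, therefore carried 1 Pax3 allele replaced by GFP, and the sort recovered whatever cells made GFP. There were 4 arrays from trunk muscle at postnatal day 1 (P1) and 4 from trunk muscle at day 12 (P12), both labelled as holding proliferating satellite cells. The other 3 arrays came from abdominal, pectoral and intercostal muscle at day 28 (P28) and were labelled as holding satellite cells. The P28 arrays also carry another suffix in their internal sample names, so age, muscle and a possible batch cannot be told apart for P28. Arrays of an age are labelled as biological replicates, with no number of animals for each, so p-values measure the spread between these arrays.

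Complex I takes electrons from NADH and complex II takes them from succinate. Both pass them through ubiquinone to complex III, which hands them to cytochrome c, and cytochrome c carries them to cytochrome oxidase (complex IV). Complexes I, III and IV pump protons, and ATP synthase uses the proton gradient. Satellite cells, the stem cells of skeletal muscle, are known to hold few mitochondria when quiescent and more when they are activated. Most subunits are encoded in the nucleus, and promoters of such genes are known for sites of the factors NRF1, GABPA (an ETS protein, also called NRF2), YY1 and ERR alpha.

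RefSeq promoter windows (build GRCm38.p6, 250 bases before to 50 after the gene start) were found for 24 of the 32 genes. The genes Ndufa2, Ndufb9, Ndufs1, Sdhc, Uqcrc2, Uqcrq, Uqcrb and Cyc1 were not matched. The windows were searched on both strands for the NRF1 consensus (its matches are printed in capitals below), for the letters CCGGAAG (ETS, the family of GABPA), AAGATGGCG (YY1) and TCAAGGTCA (ERR), and no site of one motif overlapped a site of another in these genes. A match is a description of the letters only. The NRF1 consensus was in 5 of the 24 genes (20.8%, against 5.19% of the 27025 genes in the promoter table), the ETS letters in 5 (20.8%, against 9.93%), the YY1 letters in 4 (16.7%, against 1.64%) and the ERR letters in 1 (4.17%, against 0.466%). In all, 13 of the 24 genes held at least 1 of these motifs. The 4 YY1 matches all lie on the gene's strand and begin at base 23 to 36 after the gene start. Their letters include ATG, and whether that is the translation start was not tested.

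Both subunits of complex II below are shown because their promoters hold several motifs before the start. The capitals in Sdha (chr13:74350241-74350490, minus strand) mark 3 NRF1 matches. Those in Sdhd (chr9:50603850-50604099, minus strand) mark an NRF1 match and, nearer to the start, an ETS match on the other strand; its ERR match lies after the start and is not shown. Each is the stretch before the gene start, 5′ to 3′ on the gene's strand.
Sdha: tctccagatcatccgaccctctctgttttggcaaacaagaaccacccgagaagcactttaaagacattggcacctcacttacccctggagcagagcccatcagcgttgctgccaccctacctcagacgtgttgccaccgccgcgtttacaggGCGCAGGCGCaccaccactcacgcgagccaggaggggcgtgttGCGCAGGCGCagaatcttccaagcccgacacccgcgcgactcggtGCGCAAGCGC
Sdhd: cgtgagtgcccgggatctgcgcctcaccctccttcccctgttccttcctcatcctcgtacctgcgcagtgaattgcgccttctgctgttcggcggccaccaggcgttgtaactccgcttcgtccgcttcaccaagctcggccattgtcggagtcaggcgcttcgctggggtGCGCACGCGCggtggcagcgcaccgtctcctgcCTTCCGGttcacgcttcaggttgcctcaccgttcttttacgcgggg

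The next 3 genes are shown as short windows because their matches lie just after the start. Ndufa9 (chr6:126849098-126849124, minus strand) and Ndufs4 (chr13:114388045-114388068, minus strand) hold the YY1 letters, and Uqcrc1 (chr9:108936669-108936696, plus strand) holds 2 NRF1 matches, of which the second is shown. Capitals mark the match.
Ndufa9: ttgtgggagAAGATGGCGgccgccgtc
Ndufs4: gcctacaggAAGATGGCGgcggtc
Uqcrc1: ctccgctctGCGCATGCGCagcgcggct

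From P1 to P12 all 32 genes had a higher mean, with a median log2 change of 0.44 (1.36-fold) and a range of 0.17 to 0.76. Of these, 10 rose at an adjusted p under 0.05 and 0 fell, and the other 22 did not pass. The background was 6.57% of all genes tested that were called, 4.53% that rose and 2.04% that fell, with a median change of 0.02 over all genes. Every P12 array lay above every P1 array for 15 of the 32 genes, against 7.34% of all genes, and below every P1 array for 0, against 4.58%. The genes that rose were the complex I genes Ndufs8, Ndufa9, Ndufv1, Ndufs4, Ndufa4, Ndufc1 and Ndufab1, the catalytic subunit of complex II Sdha, the small complex III subunit Uqcrq and the cytochrome c gene Cycs. These changes are small, and 1 array could decide whether they passed. The count was 6, 1 and 1 without P1 replicate 1, 3 or 4, 2 and 1 without P12 replicate 1 or 4, and 16 without P12 replicate 3. Of all genes, 6.71%, 3.73% and 3.55% were called without P1 replicate 1, 3 or 4. Without P12 replicate 1, 4 or 3 the share was 3.6%, 3.51% and 7.43%. The median change of the 32 genes was 0.39 to 0.54 with any 1 array left out. A further quantile normalization left 3 (Ndufa9, Ndufs8 and Uqcrq) and lowered the median change to 0.20. The changes of the other 7 were then 0.29 for Ndufa4, 0.31 for Ndufab1, 0.26 for Ndufc1, 0.41 for Ndufs4, 0.33 for Ndufv1, 0.25 for Sdha and 0.38 for Cycs (adjusted p = 0.0504 to 0.317).

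From P12 to P28 the group did not move together. Of the 32 genes, 17 had a higher and 15 a lower mean, the median log2 change was 0.02, and the range was -0.53 to 0.58. The complex II subunit Sdhb, the complex III core protein Uqcrc1 and the complex I subunit Ndufs3 rose, and the complex I subunit Ndufa5 fell. These 3 and 1 genes stand against 31.4% of all genes that were called, 15.7% of all genes that rose and 15.7% that fell. P28 arrays lay above all P12 arrays for 1 gene and below them for 2, against 17.5% and 19.4% of all genes. All 4 calls ended when some single arrays were left out. With the 3′ bias of the RNA as a covariate 0 rose and 0 fell. The changes of Sdhb (0.65, adjusted p = 0.0621), Ndufa5 (-0.45, adjusted p = 0.11) and Uqcrc1 (0.41, adjusted p = 0.185) kept most of their size. That of Ndufs3 was 0.24 (adjusted p = 0.43). That bias was lower on every P28 array than on any other array, so it cannot be told apart from age there. The share of all genes called went from 31.4% to 22.8% with it.

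Between P1 and P28, 19 of the 32 genes rose and 0 fell, with a median log2 change of 0.49 (1.40-fold). The background was 36.6% of all genes that were called, 20.1% that rose and 16.4% that fell, with a median change of -0.02. The calls of Ndufa9, Ndufb10, Ndufs3, Sdhb and Uqcrc1 held under each of the 19 alternatives run for that comparison. Each of these genes has only 1 probe set, so the alternatives that exchange, average or filter probe sets could not change its values. Their calls are therefore not shown to be firmer than those of genes with several probe sets. The F test over the 3 ages passed for 22 of the 32 genes, against 39.0% of all genes. The 3 comparisons share arrays with each other, so their values are set side by side and not counted as separate evidence. After the quantile normalization the count that rose between P1 and P28 was 11, 2 genes fell (Ndufb5 and Uqcrc2, by 0.40 and 0.42 on the log2 scale), and the median was 0.24.

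**Figure D1:**
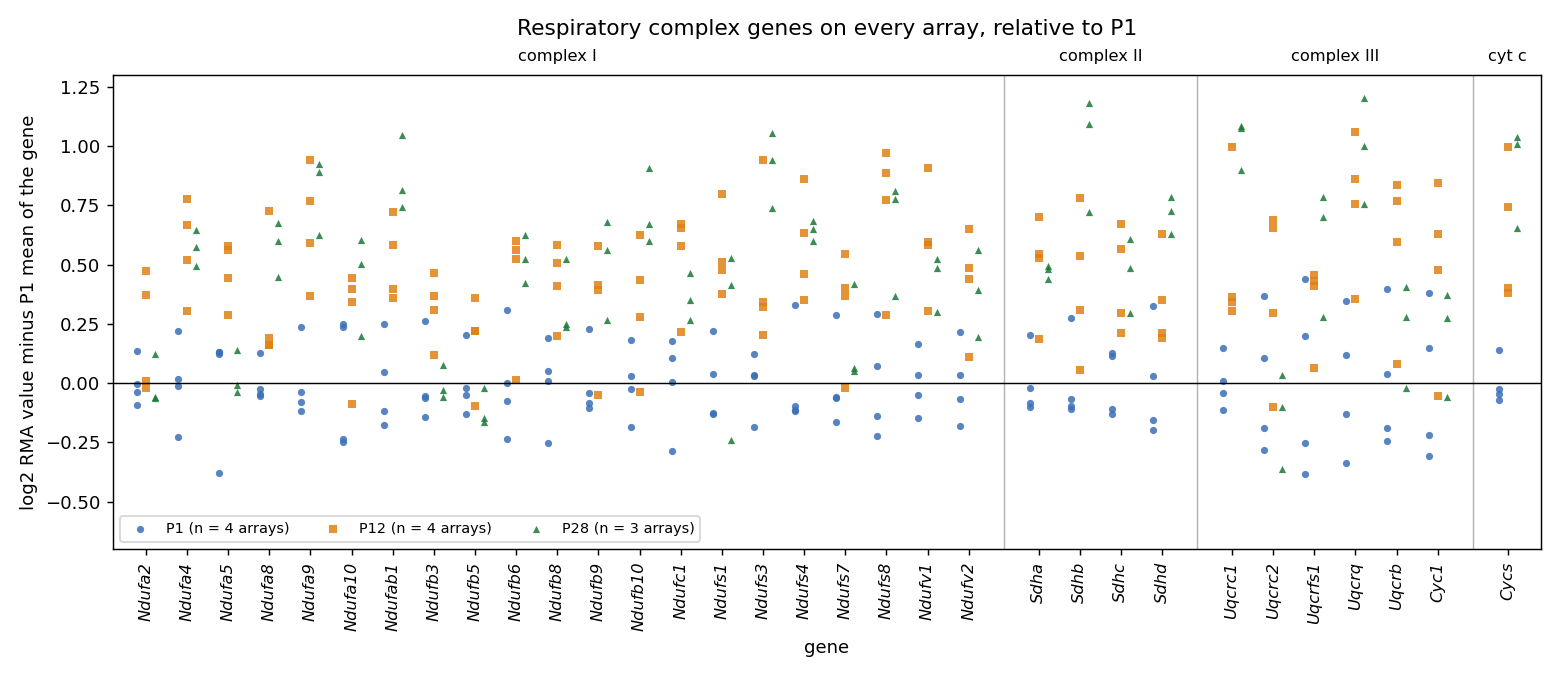
Each point is 1 array, plotted as the log2 RMA value minus the mean of the 4 P1 arrays for that gene (vertical axis), with genes grouped by complex along the horizontal axis (circles P1, squares P12, triangles P28). The P12 points lie above the P1 points for 15 of the 32 genes without overlap, while the P28 points spread from far above P1 (Sdhb, Uqcrc1) to the P1 level or below (Ndufb5, Uqcrc2).

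**Figure D2:**
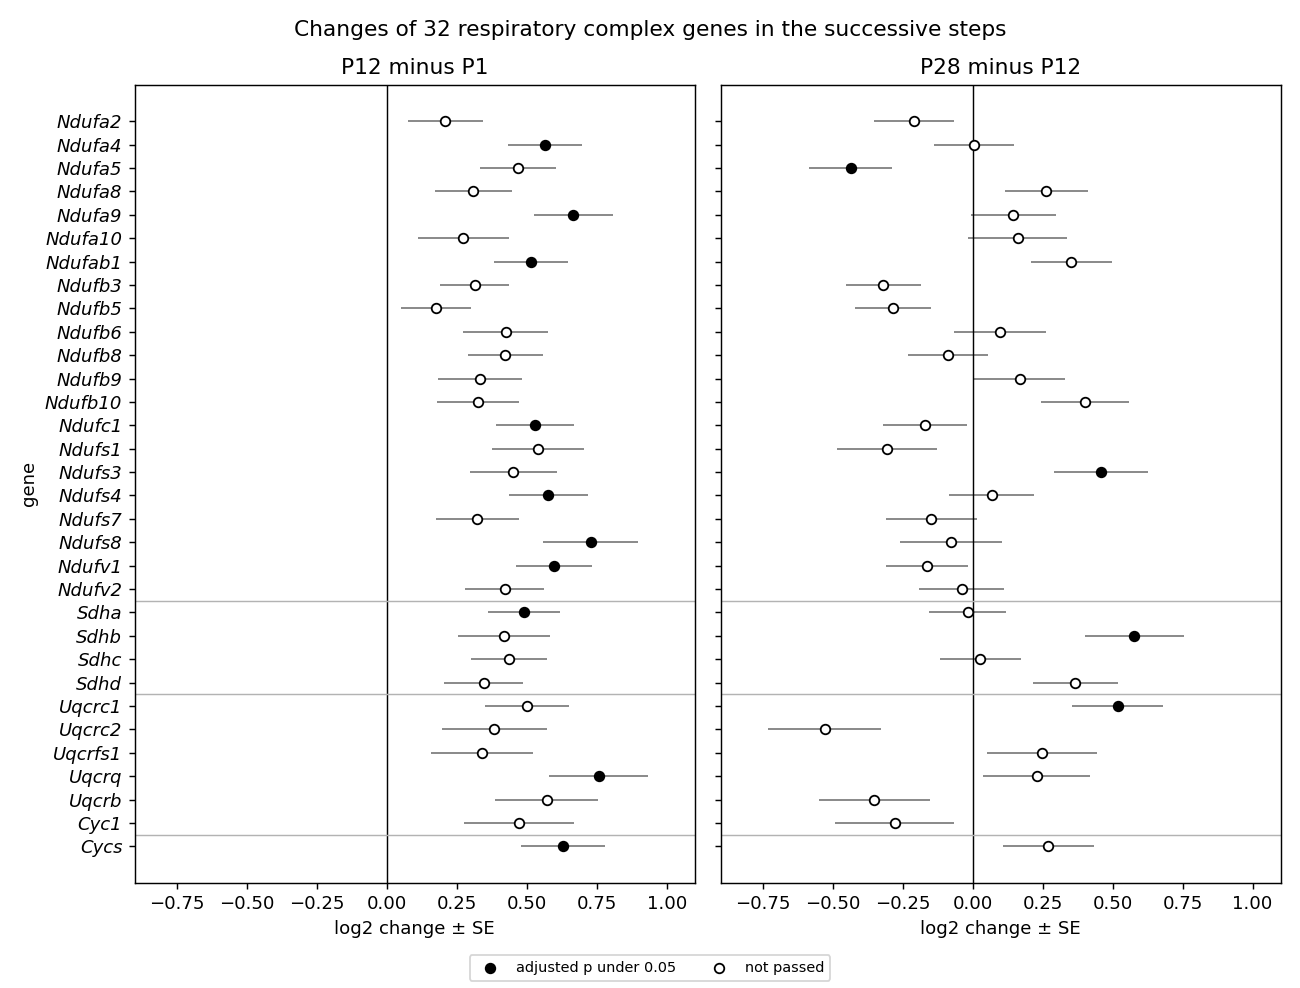
Log2 change ± SE from the fit over 11 arrays, for P12 minus P1 (left) and P28 minus P12 (right), with 1 row per gene and filled points for an adjusted p under 0.05. All 32 points of the left panel lie above 0, with 10 filled, and the right panel has 17 points above 0 and 15 below, with 4 filled.

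Complex I is built from a module that oxidises NADH, a module that reduces ubiquinone and a membrane arm that pumps protons. In the ubiquinone module, Ndufs8, which carries iron-sulphur clusters, was at 10.81, 11.03, 10.51 and 10.60 on the P1 arrays (replicates 1 to 4). It was at 11.71, 11.51, 11.02 and 11.62 at P12 and at 11.10, 11.55 and 11.52 at P28. P12 replicate 3 lay at the level of the highest P1 array, and the other P12 arrays were above all of P1. The change to P12 was 0.73 ± 0.17 (adjusted p = 0.0194), and the change from P12 to P28 was -0.08 ± 0.18 (adjusted p = 0.79).

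Ndufa9, an accessory subunit near the ubiquinone site, was at 9.49, 9.84, 9.57 and 9.53 at P1. Its P12 values were 10.37, 10.20, 9.97 and 10.55, and its P28 values were 10.23, 10.53 and 10.49. The P1 arrays did not overlap with either later age. It rose by 0.67 ± 0.14 to P12 (adjusted p = 0.0124), and P28 differed from P12 by 0.15 ± 0.15 (adjusted p = 0.514). Of the 10 genes that rose from P1 to P12 it was the only 1 whose call held without each single array in turn.

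Ndufs3, a core subunit of the ubiquinone module, stood at 9.44, 9.75, 9.65 and 9.66 at P1. It was at 9.94, 9.83, 9.96 and 10.56 at P12 and at 10.36, 10.68 and 10.56 at P28. P12 replicate 4 was at the P28 level, while the other P12 arrays lay between the ages. The step to P12 did not pass (0.45 ± 0.16, adjusted p = 0.102), the step to P28 did (0.46 ± 0.17, adjusted p = 0.0497), and the change over both was 0.91 ± 0.17 (adjusted p = 0.000638). The call from P12 to P28 ended without P12 replicate 1, 2 or 3 or P28 replicate 2 or 3 (0.38 to 0.45).

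Ndufa5, an accessory subunit of the same module, showed 11.24, 11.75, 11.74 and 11.75 at P1, with replicate 1 low. It was at 12.06, 12.20, 11.91 and 12.18 at P12, above all arrays of both other ages, and at 11.61, 11.76 and 11.58 at P28. The change to P12 was 0.47 ± 0.14 (adjusted p = 0.0541). That value passed with the replicate number as a block (adjusted p = 0.0452), a pairing that neither the labels nor the data give. Ndufa5 fell by 0.44 on the log2 scale from P12 to P28 (SE 0.15, adjusted p = 0.0348). That call ended when any array of P12 or P28 other than P12 replicate 3 was left out (-0.49 to -0.40).

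In the NADH module, Ndufv1, which binds NADH and flavin, was at 10.86, 10.99, 10.68 and 10.78 at P1. Its P12 values were 11.41, 11.42, 11.13 and 11.73, and those of P28 were 11.13, 11.31 and 11.35. All arrays of the later ages were above all P1 arrays. It rose by 0.60 ± 0.14 to P12 (adjusted p = 0.0172), and P28 differed from P12 by -0.16 ± 0.15 (adjusted p = 0.443). After the quantile normalization the change of Ndufv1 was 0.33 (adjusted p = 0.108) to P12 and 0.17 (adjusted p = 0.318) between P1 and P28.

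Ndufs4, an accessory subunit that stabilises the NADH module and whose loss causes a mitochondrial encephalopathy, was at 8.92, 9.36, 8.91 and 8.93 at P1. It reached 9.89, 9.49, 9.38 and 9.66 at P12 and 9.63, 9.68 and 9.72 at P28. P1 replicate 2 was nearest to the later ages, all P1 arrays lay below both of them, and P28 lay within P12. The change to P12 was 0.58 ± 0.14 (adjusted p = 0.0233), and P28 differed from P12 by 0.07 ± 0.15 (adjusted p = 0.775). By the second brightest probe set of Ndufs4, P28 differed from P1 by -0.067, against 0.64 for the one used.

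The acyl carrier protein Ndufab1, which also serves mitochondrial fatty acid and iron-sulphur synthesis, was at 9.68, 10.10, 9.90 and 9.73 at P1. It was at 10.25, 10.44, 10.21 and 10.57 at P12 and at 10.60, 10.90 and 10.67 at P28. The 3 ages did not overlap. The first step was 0.51 ± 0.13 (adjusted p = 0.0317), the second 0.35 ± 0.14 (adjusted p = 0.0777) and both together 0.87 ± 0.14 (adjusted p = 0.000278). Its second brightest probe set differed by -0.079 between P1 and P28.

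Ndufb10, a subunit of the membrane arm, was at 10.60, 10.75, 10.38 and 10.54 at P1, at 10.85, 11.00, 10.53 and 11.19 at P12, and at 11.17, 11.48 and 11.24 at P28. Only P28 was clear of P1. The steps of 0.33 ± 0.15 (adjusted p = 0.216) and 0.40 ± 0.16 (adjusted p = 0.0684) did not pass, and the change over both did (0.73 ± 0.16, adjusted p = 0.00227). The second step passed with the replicate number as a block (0.45, adjusted p = 0.0275). P28 arrays did not deviate together with P12 arrays of the same number (correlations of -0.09 to 0.02), so the data give no ground for that block at P28.

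Another membrane arm subunit, Ndufb3, went the other way in the second step. Its values were 10.42, 10.82, 10.50 and 10.51 at P1, 10.87, 11.03, 10.68 and 10.93 at P12, and 10.53, 10.50 and 10.64 at P28. P28 lay below all P12 arrays and within P1. Its changes of 0.31 ± 0.12 (adjusted p = 0.152) and -0.32 ± 0.13 (adjusted p = 0.0846) did not pass.

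Ndufa4 was named as a complex I subunit and was later assigned to cytochrome oxidase. It was at 10.81, 11.26, 11.03 and 11.06 at P1, at 11.71, 11.56, 11.34 and 11.81 at P12, and at 11.53, 11.69 and 11.62 at P28. The later ages were both clear of P1. It rose by 0.57 ± 0.13 to P12 (adjusted p = 0.0198), and P28 differed from P12 by 0.01 ± 0.14 (adjusted p = 0.978).

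The other 11 complex I genes changed by 0.17 to 0.54 from P1 to P12, where 1 of them rose, and by -0.31 to 0.26 from P12 to P28, where 0 rose and 0 fell. The one that rose was Ndufc1, a small subunit of the membrane arm (0.53 ± 0.14, adjusted p = 0.0325). Between P1 and P28, Ndufa8 (0.57), Ndufb6 (0.52) and Ndufb9 (0.50) rose. Ndufs1, the largest iron-sulphur subunit of the NADH module, was at 8.71 on P28 replicate 1 and at 9.48 and 9.36 on the other P28 arrays. That gene passed the F test over the ages (adjusted p = 0.0468) but none of the 3 comparisons. Ndufb8 had an adjusted p of 0.0716 from P1 to P12, which was 0.0471 with the replicate number as a block. Neither the labels nor the data pair P1 and P12 arrays by number. Between P1 and P28 the adjusted p of Ndufb8 was 0.0794 and, with that block, which the P28 arrays did not follow, 0.0407. In complex I as listed 7 of 21 genes rose in the first step, 1 rose and 1 fell in the second, and 11 rose over both. The 21 include Ndufa4, later assigned to cytochrome oxidase, which rose in the first step and over both. The shares of all genes that rose were 4.53%, 15.7% and 20.1%. After the quantile normalization 2 of the 21 rose in the first step, and 6 rose and 1 fell over both.

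Most complex I calls of the first step ended when single arrays were left out, some of which also lowered the share of all genes called. Leaving out P1 replicate 3 or 4 or P12 replicate 4 ended the calls of Ndufa4, Ndufab1, Ndufc1, Ndufs4, Ndufs8 and Ndufv1, and leaving out P12 replicate 1 ended those of these genes other than Ndufv1. The values were then 0.50 to 0.57 for Ndufa4, 0.45 to 0.55 for Ndufab1, 0.49 to 0.56 for Ndufc1, 0.48 to 0.56 for Ndufs4, 0.65 to 0.68 for Ndufs8 and 0.49 to 0.58 for Ndufv1. Without P1 replicate 1, the calls of Ndufab1, Ndufc1 (0.43) and Ndufs4 also ended, and without P12 replicate 2 those of Ndufab1 and Ndufc1. In the comparison of P28 with P1, the calls of Ndufb6, Ndufb9 and Ndufv1 ended without P1 replicate 3 or 4 or P28 replicate 2 or 3 (0.44 to 0.52, 0.41 to 0.47 and 0.39 to 0.42). The call of Ndufs8 ended without P28 replicate 2 (0.57).

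Complex II is succinate dehydrogenase, which also works in the citric acid cycle. Its flavoprotein Sdha, the catalytic subunit, was at 10.39, 10.70, 10.41 and 10.47 at P1. It was at 11.02, 11.04, 10.68 and 11.19 at P12 and at 10.98, 10.93 and 10.99 at P28. P12 replicate 3 fell within P1, and P28 lay above all P1 arrays. It rose by 0.49 ± 0.13 to P12 (adjusted p = 0.0328), and P28 differed from P12 by -0.02 ± 0.14 (adjusted p = 0.937). The first call was lost when P1 replicate 1, 3 or 4 or P12 replicate 1, 2 or 4 was left out (0.42 to 0.48), and in a fit of the 2 ages alone (adjusted p = 0.052).

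The iron-sulphur subunit Sdhb showed the largest increase from P12 to P28 among the 32 genes. It was at 9.87, 10.21, 9.84 and 9.82 at P1, at 10.47, 10.24, 9.99 and 10.71 at P12, and at 10.65, 11.11 and 11.02 at P28. P12 spanned the gap between the other ages, and P28 was clear of P1 only. The first step was 0.42 ± 0.16 (adjusted p = 0.15), the second 0.58 ± 0.18 (adjusted p = 0.0218) and both together 1.00 ± 0.18 (adjusted p = 0.000479). The second call ended without P12 replicate 2 or 3 or P28 replicate 2 or 3 (0.46 to 0.54).

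The membrane anchors Sdhc and Sdhd bind ubiquinone and haem. Sdhc was at 9.08, 9.31, 9.06 and 9.32 at P1, at 9.76, 9.40, 9.49 and 9.86 at P12, and at 9.49, 9.68 and 9.80 at P28, so both later ages lay above P1. Its changes were 0.44 ± 0.13 (adjusted p = 0.0678), 0.03 ± 0.14 (adjusted p = 0.912) and, over both steps, 0.46 ± 0.14 (adjusted p = 0.021). The last call ended without P1 replicate 3 or P28 replicate 2 or 3 (0.39 to 0.45). Sdhd was at 10.03, 10.33, 9.81 and 9.85 at P1, at 10.35, 10.19, 10.22 and 10.63 at P12, and at 10.63, 10.79 and 10.73 at P28. The P12 arrays of Sdhd overlapped with those of both other ages, and P28 was above P1. Its changes were 0.35 ± 0.14 (adjusted p = 0.167), 0.37 ± 0.15 (adjusted p = 0.0812) and 0.71 ± 0.15 (adjusted p = 0.00194). All 4 complex II genes thus rose between P1 and P28, against 20.1% of all genes, while 1 rose in each successive step. The count between P1 and P28 was 2 of 4 after the quantile normalization and 2 of 4 with the mean of probe sets. By their second brightest probe sets Sdha (0.24, adjusted p = 0.15), Sdhc (0.12, adjusted p = 0.502) and Sdhd (0.36, adjusted p = 0.0832) did not pass.

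Complex III passes electrons from ubiquinol to cytochrome c. Its core protein Uqcrc1 was at 9.55, 9.69, 9.43 and 9.50 at P1, at 9.85, 9.91, 9.88 and 10.54 at P12, and at 10.44, 10.62 and 10.63 at P28. P12 replicate 4 reached the P28 level, and both later ages were above P1. Its changes were 0.50 ± 0.15 (adjusted p = 0.0617) and 0.52 ± 0.16 (adjusted p = 0.0248), and over both it rose by 1.02 ± 0.16 (adjusted p = 0.000199). The call from P12 to P28 ended without P12 replicate 1, 2 or 3 or P28 replicate 2 or 3 (0.45 to 0.49).

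The partner core protein Uqcrc2 did not follow Uqcrc1. It was at 11.29, 11.55, 10.90 and 10.99 at P1, at 11.87, 11.84, 11.08 and 11.48 at P12, and at 10.82, 11.21 and 11.08 at P28. All 3 ages overlapped. Its changes of 0.38 ± 0.19 (adjusted p = 0.258), -0.53 ± 0.20 (adjusted p = 0.0601) and -0.14 ± 0.20 (adjusted p = 0.616) did not pass. The decrease from P12 to P28 passed with the replicate number as a block (-0.58, adjusted p = 0.0226), which the P28 arrays did not follow.

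The small subunit Uqcrq rose most of all 32 genes from P1 to P12. It was at 9.98, 10.21, 9.73 and 9.53 at P1, at 10.62, 10.72, 10.22 and 10.92 at P12, and at 10.62, 11.07 and 10.86 at P28. P12 replicate 3 was only just above the highest P1 array, and P28 was clear of P1. The changes were 0.76 ± 0.18 (adjusted p = 0.0194) and 0.23 ± 0.19 (adjusted p = 0.399). The first call was lost when P1 replicate 3 or 4 or P12 replicate 1 or 4 was left out (0.64 to 0.76). It rests on a probe set that may hybridise to related transcripts, and the brightest of its other probe sets, all of them dim, changed by -0.014.

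Uqcrb, another small subunit at the ubiquinone-binding site, was at 11.94, 12.31, 11.66 and 11.72 at P1. It was at 12.74, 12.50, 11.99 and 12.68 at P12 and at 12.18, 12.31 and 11.89 at P28. Its arrays overlapped in every comparison, and neither the change of 0.57 ± 0.18 (adjusted p = 0.0789) nor that of -0.35 ± 0.20 (adjusted p = 0.202) passed. The first of these passed with the replicate number as a block (adjusted p = 0.0319), a pairing that neither the labels nor the data give.

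The electron carriers of complex III are the Rieske protein Uqcrfs1 and cytochrome c1, encoded by Cyc1. Uqcrfs1 was at 10.46, 10.22, 9.64 and 9.77 at P1, at 10.45, 10.43, 10.08 and 10.48 at P12, and at 10.30, 10.81 and 10.72 at P28, with P1 replicates 1 and 2 within the range of the later ages. Its steps of 0.34 ± 0.18 (adjusted p = 0.312) and 0.25 ± 0.20 (adjusted p = 0.371) did not pass, and the change over both did (0.59 ± 0.20, adjusted p = 0.0288). That call ended without P1 replicate 3 or 4 or P28 replicate 2 or 3 (0.46 to 0.53). Cyc1 was at 11.46, 11.69, 11.00 and 11.09 at P1, at 12.15, 11.94, 11.25 and 11.79 at P12, and at 11.25, 11.68 and 11.58 at P28. Its arrays overlapped throughout, and its changes of 0.47 ± 0.20 (adjusted p = 0.175) and -0.28 ± 0.21 (adjusted p = 0.354) did not pass.

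Cycs encodes somatic cytochrome c, the soluble carrier that also triggers caspase activation when it leaves mitochondria. It was at 10.55, 10.73, 10.52 and 10.57 at P1, at 11.33, 10.99, 10.97 and 11.59 at P12, and at 11.25, 11.63 and 11.60 at P28. Both later ages were above all P1 arrays. It rose by 0.63 ± 0.15 to P12 (adjusted p = 0.0212), differed by 0.27 ± 0.16 from P12 to P28 (adjusted p = 0.23), and was 0.90 ± 0.16 higher at P28 than at P1 (adjusted p = 0.000529). Its first call was lost when P1 replicate 3 or 4 or P12 replicate 1 or 4 was left out (0.51 to 0.62). The change between P1 and P28 was 0.43 (adjusted p = 0.199) by the second brightest probe set of Cycs and 0.38 (adjusted p = 0.063) with the mean of its probe sets.

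Other probe sets of the same genes with a mean of at least 7 gave the same direction from P1 to P12 but not from P12 to P28. Dimmer probe sets went both ways in the first step. A probe set of Ndufab1 with a mean of 5.08 fell by 0.67 on the log2 scale (adjusted p = 0.00714 over 34945 probe sets). Another of that gene, with a mean of 5.80, rose by 0.55 (adjusted p = 0.0349). The 32 genes had 70 probe sets, and 17 genes had more than 1 with a mean of at least 7, a level well above the bacterial control probe sets (3.36 to 3.64). In those 17 genes the 24 further probe sets were all higher at P12 than at P1, with a median log2 change of 0.45 against 0.47 for the probe sets used above. The calls were less stable than the direction. With the second brightest probe set those of Ndufab1 (0.22, adjusted p = 0.383), Ndufs4 (0.25, adjusted p = 0.445), Sdha (0.32, adjusted p = 0.107) and Cycs (0.48, adjusted p = 0.248) ended. Ndufa5 and Uqcrb then passed, and 8 of the 32 genes rose instead of 10. From P12 to P28, 15 of the 24 were higher, against 7 of the 17 used, and the medians were 0.08 and -0.04. In that step 11 of the 17 genes had bright probe sets of both signs, against 0 in the first step.

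Uqcrc2 was one such gene. Its second probe set had a P1 mean of 10.17 ± 0.06 (SD, n = 4), a P12 mean of 10.43 ± 0.22 (SD, n = 4) and a P28 mean of 10.59 ± 0.22 (SD, n = 3), whereas the brighter one above was lowest at P28. For Ndufv2, the flavoprotein partner of Ndufv1, the probe set used changed by -0.04 ± 0.15 from P12 to P28, while another rose by 0.56 (adjusted p = 0.0347 over 34945 probe sets). A second probe set of Ndufb9 rose by 0.62 (adjusted p = 0.00464) where the brightest changed by 0.17. One of the 6 probe sets of Ndufs8 rose by 0.72 (adjusted p = 0.0119), and the brightest changed by -0.08. A second probe set of Ndufa5 changed by -0.19 (adjusted p = 0.377), so the decrease of that gene rests on 1 probe set. From P1 to P12 that same probe set rose by 0.78 (adjusted p = 0.00505), where the brightest did not pass.

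**Figure D3:**
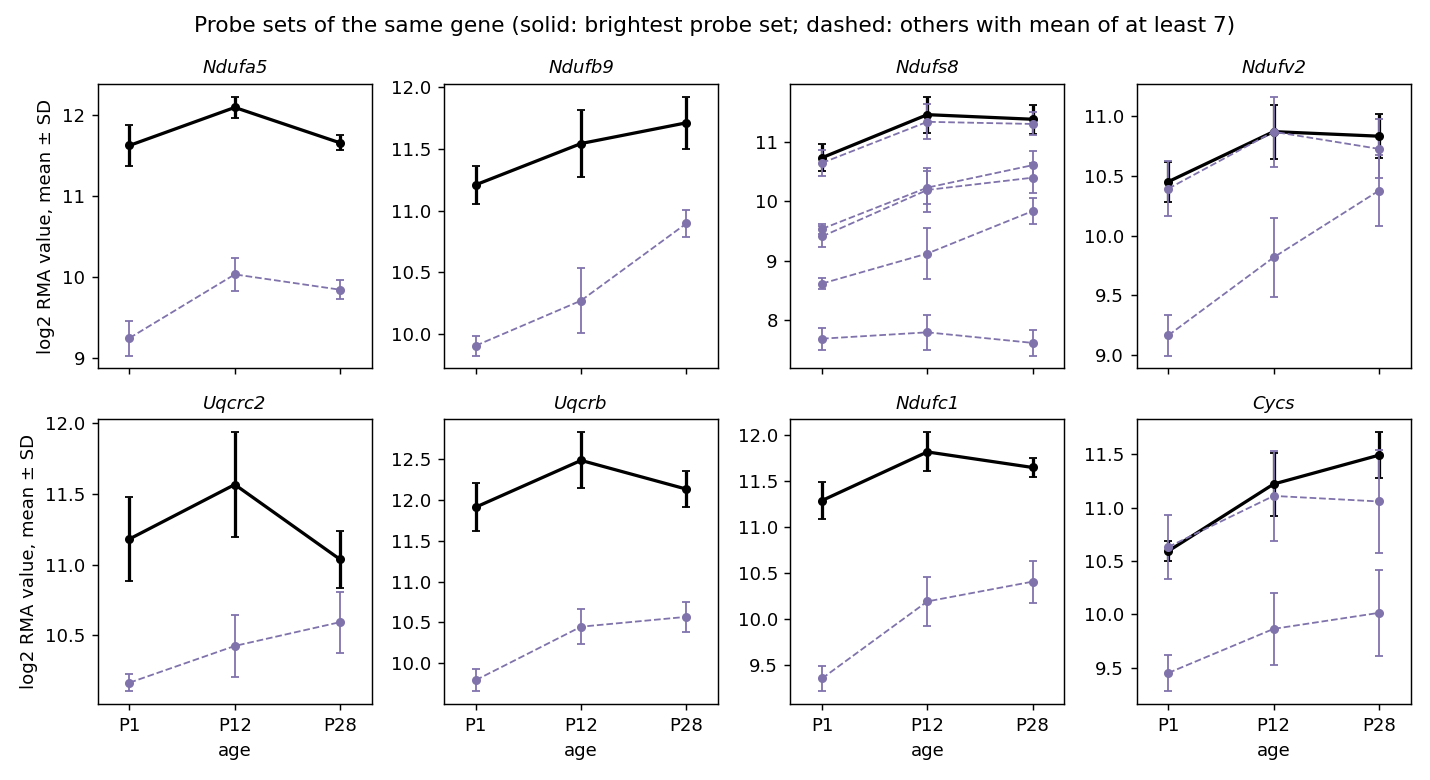
Mean ± SD of the log2 RMA value over the arrays of each age (n = 4, 4 and 3) for 8 genes with more than 1 bright probe set. The solid line is the probe set used throughout and dashed lines are the other probe sets with a mean of at least 7. All lines go up from P1 to P12, and from P12 to P28 they part, as in Uqcrc2, where the solid line goes down and the dashed line goes up.

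The genes shared an array pattern within each age. After each gene's own mean was subtracted, the median over the 32 genes was -0.33, -0.07, -0.43 and -0.38 on the P1 arrays, 0.22, 0.23, -0.11 and 0.32 on the P12 arrays, and 0.01, 0.28 and 0.26 on the P28 arrays. P12 replicate 3 was the lowest P12 array for 25 of the 32 genes, P1 replicate 2 the highest P1 array for 29, and P28 replicate 1 the lowest P28 array for 27. P1 replicate 2 and P12 replicate 3 thus came near each other. The 95th percentile of all probe sets was likewise highest on P1 replicate 2 within P1 and lowest on P12 replicate 3 within P12, but it did not follow the order of the other P12 arrays or of the P28 arrays. It was 10.08, 10.14, 9.81 and 9.87 on the P1 arrays, 10.25, 10.30, 9.98 and 10.19 on the P12 arrays and 10.21, 10.19 and 10.25 on the P28 arrays. The 32 genes have means of 9.21 to 12.17 and lie in this upper part of the range. After the quantile normalization, which gives all arrays the same percentiles, 30 of the 32 genes were still higher at P12 than at P1, with the median of 0.20 given above.

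The 3′ bias of the RNA, measured as the log2 difference between the 3′ and 5′ control probe sets of Gapdh, ranged from 1.62 to 2.79 on the P1 arrays, from 1.32 to 3.05 on those of P12 and from 0.79 to 0.99 on those of P28. Within both P1 and P12, replicates 3 and 4 had the lower bias. With it as a covariate, 15 genes rose and 0 fell from P1 to P12, and the share of all genes called in that step went from 6.57% to 10.5%. From P12 to P28 the share went from 31.4% to 22.8%, and the lower bias of the P28 arrays cannot be told apart from their age. Within replicates 1 and 2 alone, and within replicates 3 and 4 alone, all 32 genes had higher P12 means, with 0 and 1 of them passing at 2 arrays against 2. Of all genes, 0.704% and 4.99% were called in these fits.

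Markers of other cells differed strongly at P28. The mean of 12 myofibre markers was 8.82 to 9.18 at P1, 8.90 to 9.83 at P12 and, at P28, 10.88 to 11.31, and 10 of the 12 rose and 1 fell from P12 to P28. The mean of 6 neutrophil markers was 5.80 to 7.47, 5.57 to 6.33 and 9.59 to 10.87, and all 6 rose in that step. For 8 endothelial markers it was 5.68 to 6.43, 6.01 to 6.67 and 7.95 to 8.69 (8 rose). For 3 erythroid markers it was 4.75 to 5.45, 5.36 to 5.84 and 7.33 to 8.92 (2 rose). For 8 macrophage markers it was 6.93 to 7.42, 6.36 to 6.99 and 7.47 to 8.76 (5 rose). For 6 fibro-adipogenic markers it was 9.72 to 10.27, 9.49 to 9.88 and 10.52 to 11.45 (3 rose). Of these cells most use respiratory complexes, and more RNA from another cell type and more RNA per satellite cell cannot be told apart in these bulk samples. The part of these markers in the P28 values was not tested.

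From P1 to P12, 4 of the 12 myofibre markers rose and 1 fell. In all, 5 of the 12 had a higher and 7 a lower mean at P12, with a median log2 change of -0.07. The largest increase was that of the fast myosin Myh4, which was near the control probe sets at P1 (3.73) and at 7.06 at P12. No endothelial, neutrophil or erythroid marker rose or fell, 2 macrophage markers and 1 fibro-adipogenic marker fell, and 3 of 10 satellite cell markers rose. By direction alone, all 8 endothelial markers were higher at P12 (median 0.32) and all 8 macrophage markers lower (median -0.62). Of the satellite cell markers 9 were higher and 1 lower (median 0.36). The neutrophil, erythroid and fibro-adipogenic markers were mixed (1, 2 and 2 higher, 5, 1 and 4 lower). The mean of the satellite cell markers was 9.24 to 9.78 at P1, 9.69 to 9.98 at P12 and, at P28, 10.35 to 10.51. From P12 to P28 they did not move together, with 5 of the 10 higher and 5 lower and a median log2 change of 0.02. In that step 3 of them rose, Chrdl2 (2.70), Sdc4 (1.86) and Calcr (0.59), and 0 fell, against 15.7% of all genes in each direction. Of 11 cell cycle markers 7 rose and 0 fell from P1 to P12, and 0 rose and 10 fell from P12 to P28. Their mean was 8.65 to 9.26 at P1, 9.50 to 10.03 at P12 and, at P28, 8.48 to 8.95. The part of fibre, endothelial and cell cycle RNA in the values of the respiratory genes was not tested.

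**Figure D4:**
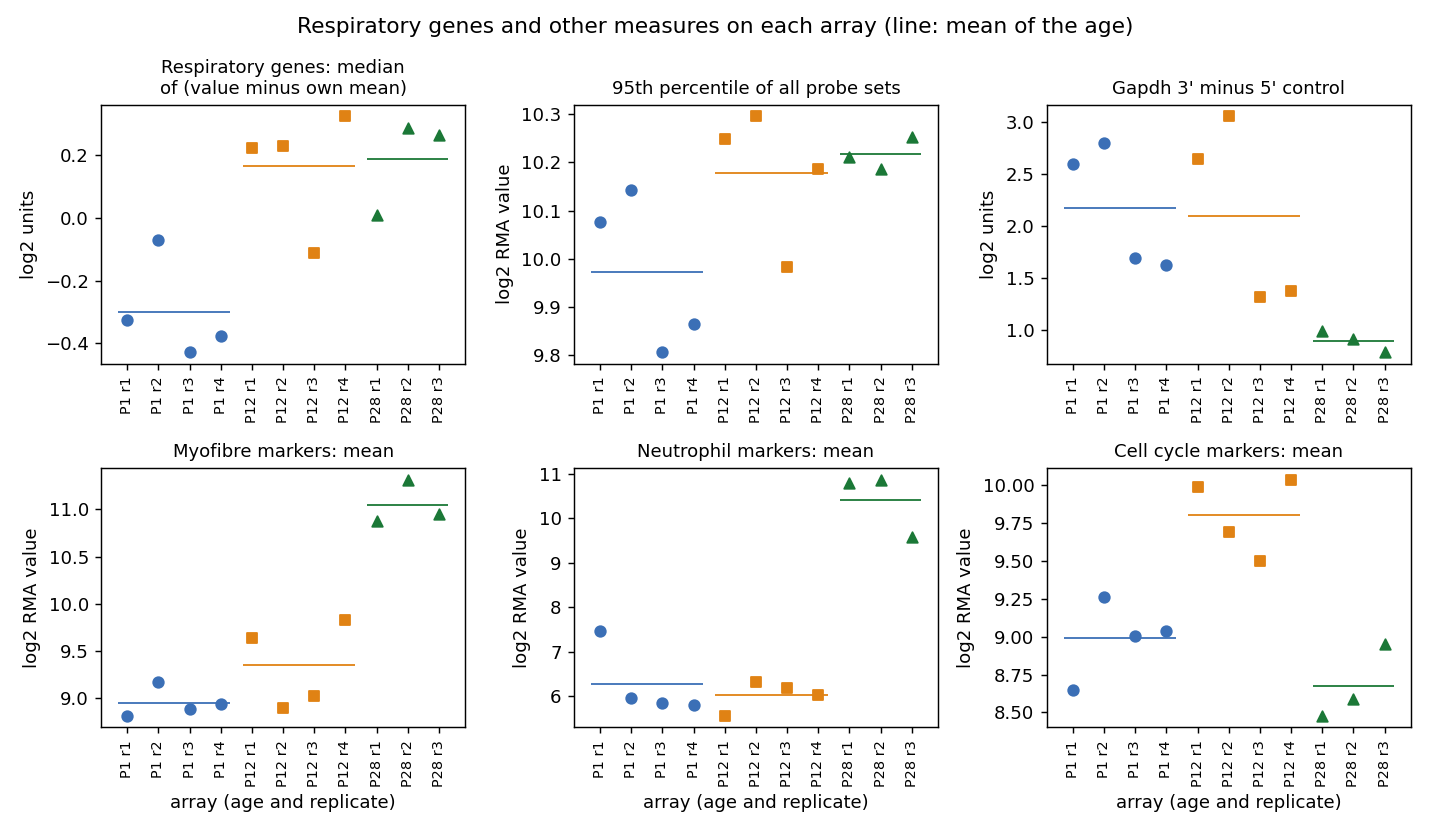
Each point is 1 array (horizontal axis, age and replicate) and each line the mean of an age, for 6 measures in log2 units. The median of the respiratory genes and the 95th percentile of all probe sets are both low on P1 replicates 3 and 4 and on P12 replicate 3 within its age. The myofibre and neutrophil marker means are highest at P28, and the cell cycle marker mean is highest at P12.

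Related gene lists were described on the same fit. Of all genes, 4.53% rose and 2.04% fell from P1 to P12, and 15.7% rose and 15.7% fell from P12 to P28. Of 14 further complex I subunits 3 rose and 0 fell from P1 to P12 (median 0.37), and 2 rose and 0 fell from P12 to P28 (median 0.04). The membrane arm subunits Ndufa1 (0.64 ± 0.15, adjusted p = 0.0198) and Ndufb7 (0.59 ± 0.13, adjusted p = 0.0157) rose in the first step, and Ndufa6 (0.77 ± 0.19, adjusted p = 0.00669) rose in the second. Of 3 further complex III subunits 1 rose from P1 to P12, Uqcr11 (0.62 ± 0.17, adjusted p = 0.0401), and none passed in the second step (median 0.26).

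All 17 genes of ATP synthase and its inhibitor were higher at P12 than at P1 (median 0.41). There 2 rose and 0 fell, against 4.53% of all genes that rose. At a share near the 15.7% of all genes, 3 of the 17 rose and 0 fell from P12 to P28 (median -0.04). These were Atp5g1 (0.73 ± 0.20, adjusted p = 0.0112) and Atp5g2 (0.70 ± 0.24, adjusted p = 0.0351), which encode the proton-driven c ring, and Atp5l (0.71 ± 0.19, adjusted p = 0.0106), a subunit g of the membrane part. After the quantile normalization 0 of the 17 rose in the first step (median 0.15), and 3 rose and 2 fell in the second. With the 3′ bias covariate 7 of the 17 rose in the first step and 0 rose in the second, where the 3 genes named did not pass. That covariate changed the share of all genes called from 6.57% to 10.5% in the first step and from 31.4% to 22.8% in the second. For comparison, of 9 ubiquitous cytochrome oxidase subunits 3 rose and 0 fell in the first step (median 0.45), and 0 rose and 1 fell in the second (median -0.12). Of all genes, 15.7% fell in the second step. The matrix-side subunit Cox5a rose from P1 to P12 by 0.82 ± 0.16 (adjusted p = 0.00675). The first-step count of these 9 was 1 after the quantile normalization and 6 with the 3′ bias covariate. No difference between the complexes was tested.

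Of 26 assembly factors of the respiratory complexes 0 rose and 0 fell from P1 to P12 (median 0.21), and 4 rose and 0 fell from P12 to P28 (median 0.08), near the 15.7% of all genes that rose. With the 3′ bias covariate 1 of the 26 rose in the second step, where 22.8% of all genes were called instead of 31.4%. Ecsit, which acts in complex I assembly and in innate immune signalling, rose by 1.06 ± 0.18 in the second step (adjusted p = 0.000426). The complex III factor Uqcc2 rose by 0.67 ± 0.19 (adjusted p = 0.0147) and the complex II factor Sdhaf2 by 0.48 ± 0.14 (adjusted p = 0.0155). Of 13 citric acid cycle enzymes 2 rose and 0 fell from P1 to P12 (median 0.43), and 1 rose and 1 fell from P12 to P28 (median -0.02), against 4.53% of all genes that rose in the first step and 15.7% in each direction in the second. In the first step 0 of the 13 rose after the quantile normalization and 7 with the 3′ bias covariate, and 3 fell in the second after the quantile normalization. Ogdh, the first subunit of the oxoglutarate dehydrogenase complex, rose in both steps (0.51 ± 0.13 and 0.57 ± 0.15, adjusted p = 0.0341 and 0.00755). Dlst, the second subunit of the same complex, fell from P12 to P28 by 0.60 (SE 0.16, adjusted p = 0.0101), and Idh3a, a subunit of isocitrate dehydrogenase, rose from P1 to P12 (0.50 ± 0.14, adjusted p = 0.0408).

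Regulators of mitochondrial biogenesis had no call from P1 to P12 and 4 decreases from P12 to P28. Of all genes, 4.53% rose and 2.04% fell in the first step, and 15.7% rose and 15.7% fell in the second. Of 14 genes 0 rose and 0 fell from P1 to P12 (median 0.17), and 0 rose and 4 fell from P12 to P28 (median -0.18). Those that fell were Tfb1m, a mitochondrial ribosomal RNA methyltransferase (-0.84 ± 0.15, adjusted p = 0.000678), Nrf1 (-0.67 ± 0.20, adjusted p = 0.0205), the coactivator Ppargc1b (-0.62 ± 0.19, adjusted p = 0.0218) and Yy1 (-0.53, adjusted p = 0.0445). Ppargc1a, the best known coactivator of the group, changed by -0.22 and 0.05 (adjusted p = 0.708 and 0.925). With the 3′ bias of the RNA as a covariate, 2 of the 14 rose from P1 to P12, and 1 rose and 1 fell from P12 to P28. Of all genes, 10.5% and 22.8% were then called in the 2 steps, instead of 6.57% and 31.4%.

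**Figure D5:**
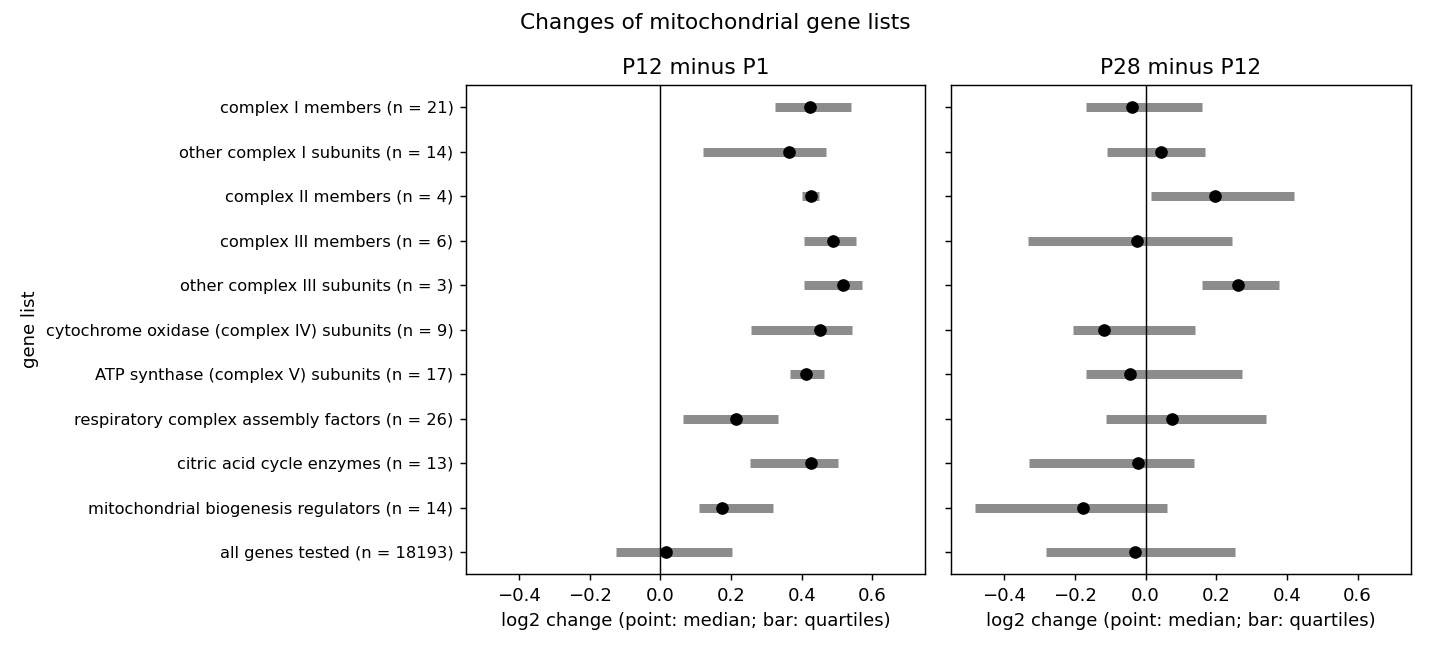
Median (point) and quartiles (bar) of the log2 change over the genes of each list, for P12 minus P1 (left) and P28 minus P12 (right), with the number of measured genes beside each name. In the left panel the subunit lists of complexes I to V have medians of 0.37 to 0.52, against 0.02 over all genes, and in the right panel they have medians of -0.12 to 0.26.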

How the data were processed

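The authors deposited 1 log2 expression value for each probe set and array. Per the submitters' processing notes, Affymetrix Expression Console, RMA and affy were used. Their versions, order and roles, and whether all arrays were processed together, are not given in the sources used here. The values were used without a further transformation. Of 45101 probe sets, 34958 carried 1 gene symbol, 932 several and 9211 none.

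Group means over all 11 arrays were fitted with limma 3.58.1 in R 4.3.3 (lmFit, contrasts, eBayes, 8 residual and 6.62 prior degrees of freedom). Tests were two-sided, with Benjamini-Hochberg adjustment over 18193 genes and a threshold of 0.05. The fit was tested on simulated data. Levels are log2 RMA values and changes are log2 differences ± SE. Arrays give no read depth, and their number limits the precision.

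Genes named with every array were all members of complexes II and III, Cycs, and the 5 complex I genes with the largest change in each step. Others were named for a call or a second probe set, seen in the values. Related lists name up to 3 genes called in a step, beside Yy1 and Ppargc1a, which were chosen after their values were seen. The members and lists were chosen with earlier results of these data known.

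Deviations from the group means correlated at 0.15 to 0.34 between P1 and P12 arrays of the same replicate number. Arrays of different number also correlated, at 0.15 and 0.23 within replicates 1 and 2 and at 0.14 and 0.25 within replicates 3 and 4. Between these 2 sets the values were -0.31 to -0.10. The data thus set replicates 1 and 2 apart from 3 and 4, and neither they nor the labels pair arrays by number. P28 arrays showed no such sets with P1 or P12 arrays (-0.16 to 0.14). The alternatives tried were the replicate number as a block, median centring, quantile normalization, the mean of probe sets, filters on dim and on _x_at and _s_at probe sets, array weights, other eBayes options, fits of 2 ages, the 3′ bias as a covariate, arrays left out and, chosen after seeing the data, every probe set tested and the second brightest probe set.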

Additional observations from a re-analysis of the deposited data

Results flagged for a closer look

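In the groups of 4 arrays, 66 sets of values were compared with Dixon's critical value for 4 samples, and 8 had 1 array standing apart; chance alone gives about 1 in 20. At P1, replicate 1 was low for Ndufa5 (11.24, with the others at 11.74 to 11.75). P1 replicate 2 was high for Ndufa8 (9.76, the next at 9.61), Ndufs4 (9.36, the next at 8.93) and Sdhb (10.21, the next at 9.87). At P12, replicate 4 was high for Ndufa8 (10.36, the next at 9.82) and Uqcrc1 (10.54, the next at 9.91). P12 replicate 3 was low for Ndufb6 (10.28, the next at 10.79) and Uqcrfs1 (10.08, the next at 10.43).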

How the results depend on the processing

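From P1 to P12, 10 genes rose, 3 after quantile normalization, 22 with array weights (where 14.3% of all genes were called), 13 with the replicate block, 0 within replicates 1 and 2, 1 within replicates 3 and 4, and 1 to 16 with an array left out. Of all genes, 0.704% and 4.99% were called within these replicate sets, and 3.51% to 7.43% with an array left out. The median was 0.20 after quantile normalization and 0.39 to 0.54 with an array left out. From P12 to P28, 3 rose, 5 with array weights, 0 with the 3′ bias covariate (where 22.8% of all genes were called) and 0 to 7 with an array left out. The 1 decrease became 2 with the replicate block, 2 with array weights, 2 without dim probe sets, 2 without _x_at and _s_at probe sets, 3 after quantile normalization and 0 to 4 with an array left out. It became 0 with the mean of probe sets, trend and robust eBayes, the 3′ bias covariate or the second brightest probe set. That median was -0.06 to 0.08 with an array left out. Between P1 and P28, 19 rose, 11 after quantile normalization and 13 to 22 with an array left out. There, 0 fell, but 2 after quantile normalization and 1 without _x_at and _s_at probe sets, and the median was 0.24 after quantile normalization and 0.44 to 0.56 with an array left out. The replicate block ended no call.

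Without _x_at and _s_at probe sets the remaining probe sets of Uqcrq are dim, and its change was -0.014 in the first step, -1.002 in the second and -1.02 over both. Ndufa2 then has no probe set. Between P1 and P28, Uqcrq was at -0.0053 with the mean of probe sets, and Ndufab1 at -0.079 without _x_at and _s_at probe sets and by its second brightest probe set. By that probe set Ndufs4 was at -0.067, Ndufb5 at 0.40 and Uqcrc2 at 0.43. The cause of the other differences was not tested.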
